A study of Mus musculus with 24 samples.

Results

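The genes described here carry glucose into the heart muscle cell, break it down to pyruvate and lactate, and store it as glycogen. They are 38 mouse genes chosen by symbol from a list that covers glucose transporters, the enzymes of glycolysis, the enzymes that set the activity of phosphofructokinase, lactate handling, and glycogen synthesis and breakdown. All 38 symbols were found, in 39 rows of the 52724 gene rows of the count table. One further row also named Aldoa, with 38 counts over all libraries, was too low to test, so each of the 38 symbols has 1 row among the 16018 genes tested.

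RNA was sequenced from whole mouse hearts in 24 libraries, 6 for each of 4 genotypes, and each genotype has 3 libraries in batch 1 and 3 in batch 2. The genotype FKl/l carries floxed Fkbp1a alleles without Cre recombinase, where Fkbp1a encodes FKBP12, a small protein that binds the calcium release channel of the heart. FKl/l MHC+ and FKl/l MCK+ carry the same floxed alleles with Cre under the αMHC or the MCK promoter, and per the series' design text these promoters differ in the stage at which Cre appears and in how much of it is made. MHC CRE Only carries the αMHC-driven Cre without the floxed alleles. No group with MCK-driven Cre alone was analysed here, both promoters act in heart muscle cells and leave Fkbp1a in the other cells of the heart, and the labels give neither the age of the animals nor whether each library is a separate animal. The p-values therefore measure the spread between these libraries, which may be technical in part. Libraries are named by batch and number, so that FKl/l 1-3 is the third library of batch 1.

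Glucose enters a cardiomyocyte mainly through GLUT4, which insulin and contraction bring to the surface, and through GLUT1, which prevails in the fetal heart. Hexokinase traps it, phosphofructokinase commits it to glycolysis, and the lower enzymes yield ATP and pyruvate, which is oxidized in mitochondria or reduced to lactate. The adult heart draws most of its energy from fatty acids, and a return toward fetal isozymes and greater use of glucose is a well-known feature of the failing heart.

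The libraries held 27799403 to 40412640 counts in gene rows, of which mitochondrially encoded genes took 25.7 to 36.5%. Levels are given as CPM, the counts of a gene scaled to a common library size after trimmed-mean normalization. Fkbp1a, the targeted gene, lay between 121 and 147 CPM in FKl/l, between 81.7 and 138 in MHC CRE Only, between 51.1 and 81.1 in FKl/l MCK+ and between 43.5 and 75.6 in FKl/l MHC+. The library labelled MHC CRE Only 1-3 had the 81.7 CPM and goes against its label. Lung markers set 2 other libraries apart, by the summed level of the 4 tested genes of 9 listed (Scgb1a1, Scgb3a1, Scgb3a2 and Sftpa1). Sftpc, Sftpb, Sftpd, Epcam and Cldn18 were not tested and are not in that sum. No FKl/l MCK+ or FKl/l MHC+ library exceeded a sum of 24.9 CPM, against 151 for FKl/l 1-1 and 461 for MHC CRE Only 2-3. These 3 libraries were kept, and counts are also given without them. Cardiomyocyte markers (10 genes) summed to 47589 to 61503 CPM, with genotype means between 53406 and 55980 CPM. In bulk tissue, fewer cells of a type and less RNA per cell cannot be told apart.

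The members that passed the test in a genotype comparison were 4, Hk1, Pfkp, Pgam1 and Pfkfb1. The 250 bases before an annotated start are shown for Hk1, Pfkp and Pgam1, which were higher in FKl/l MHC+ hearts, and for Hk2, the heart's other hexokinase, which passed the test in no genotype comparison. The window of Pfkfb1 overlaps exons of the neighbouring gene Apex2 and is not shown. Sequences come from RefSeq on GRCm38.p6, are written 5′ to 3′ on the gene's strand, and lie at chr10:62379909-62380158 (minus strand) for Hk1, chr6:82774455-82774704 (minus strand) for Hk2, chr13:6648772-6649021 (minus strand) for Pfkp and chr19:41911621-41911870 (plus strand) for Pgam1. Capitals mark ACGTG, 1 form of the core of the hypoxia response element, and GGGCGG, the GC box bound by Sp1, on either strand. Other forms of that core, such as GCGTG, were not searched and are not marked.
Hk1: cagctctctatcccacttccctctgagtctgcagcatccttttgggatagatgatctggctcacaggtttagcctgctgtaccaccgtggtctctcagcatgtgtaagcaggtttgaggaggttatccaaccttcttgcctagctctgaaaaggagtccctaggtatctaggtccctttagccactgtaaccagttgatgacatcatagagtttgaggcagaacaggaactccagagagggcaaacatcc
Hk2: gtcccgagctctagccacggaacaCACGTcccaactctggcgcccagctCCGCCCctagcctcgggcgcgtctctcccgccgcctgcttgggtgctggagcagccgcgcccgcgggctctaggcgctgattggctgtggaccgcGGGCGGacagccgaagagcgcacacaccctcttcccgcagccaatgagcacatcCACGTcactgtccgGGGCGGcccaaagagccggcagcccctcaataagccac
Pfkp: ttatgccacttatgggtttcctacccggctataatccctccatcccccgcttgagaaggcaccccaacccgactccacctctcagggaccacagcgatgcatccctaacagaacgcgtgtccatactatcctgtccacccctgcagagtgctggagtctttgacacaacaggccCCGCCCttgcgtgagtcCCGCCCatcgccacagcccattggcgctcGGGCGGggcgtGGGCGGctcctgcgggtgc
Pgam1: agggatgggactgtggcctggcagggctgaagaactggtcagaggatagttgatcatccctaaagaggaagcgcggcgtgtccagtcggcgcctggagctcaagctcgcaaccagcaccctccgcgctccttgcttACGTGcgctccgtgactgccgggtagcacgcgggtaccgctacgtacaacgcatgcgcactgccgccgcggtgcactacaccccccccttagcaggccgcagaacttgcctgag
The Hk1 window holds neither word, and RefSeq lists a second Hk1 start inside the gene, so gene counts do not tell which start is used. The Pfkp window holds 4 copies of GGGCGG, the Hk2 window 3 copies of it and 2 of ACGTG, and the Pgam1 window 1 of ACGTG. RefSeq windows were found for 36 of the 38 members, not for Slc2a3 and Slc2a4. Each member has 1 window, the nearest to its annotated gene start, at up to 19461 bases from it (Phkg1). The sets of all windows and of tested genes hold every window listed, so they were not chosen in the same way. ACGTG was in 14 of those 36 windows (38.9%), in 16.6% of all 32851 windows of that length and in 20.8% of the 14664 windows of tested genes. GGGCGG was in 22 of the 36 (61.1%), in 32.7% of all windows and in 54.9% of those of tested genes. The full E-box CACGTG, which contains ACGTG on both strands, was in 3 of the 36 (8.33%), in 6.02% of all windows and in 8.03% of those of tested genes. A match describes letters in these windows and does not show that a factor binds.

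The levels of the members spanned 4 orders of magnitude and followed the muscle isozymes. Levels were divided by the merged length of all annotated exons of a gene, which can exceed that of the transcript in use. Comparisons between genes are therefore approximate. Per kilobase of exon, the mean level over the 24 libraries was highest for Gapdh (1279 CPM per kb), Aldoa (1240), Eno3 (1202), Pgam2 (879), Ldhb (733) and Pygm (517), and lowest for Slc16a3 (0.419), Slc2a3 (0.328) and Aldoc (0.108). The first 3 of these did not differ beyond their spread over libraries, since Gapdh ranged from 3793 to 6492 CPM, Aldoa from 2929 to 4464 and Eno3 from 1606 to 2443 before division by length. Pfkm, the muscle phosphofructokinase, made up 94.8% of the level per kb of the 3 phosphofructokinase genes, against 4.24% for the liver form Pfkl and 0.960% for the platelet form Pfkp. Before division, Pfkm had a mean of 1362 CPM over 3340 bases of exon, and Pfkp 55.3 CPM over 13401 bases. Among the other isozyme families, Eno3 took 96.3% of the level of Eno1 and Eno3, Pgam2 took 95.1% of that of Pgam1 and Pgam2, Slc2a4 (GLUT4) took 96.5% of that of the 3 glucose transporters, and Pygm took 99.6% of that of the 2 glycogen phosphorylases. Ldhb, the heart form of lactate dehydrogenase, took 81.2% against 18.8% for Ldha. Hexokinase was the most evenly shared pair, with 40.2% Hk1 and 59.8% Hk2 (means of 247 and 257 CPM before division by length). Together the members took 2.83 to 3.51% of the counts outside the mitochondrially encoded genes.

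**Figure D1:**
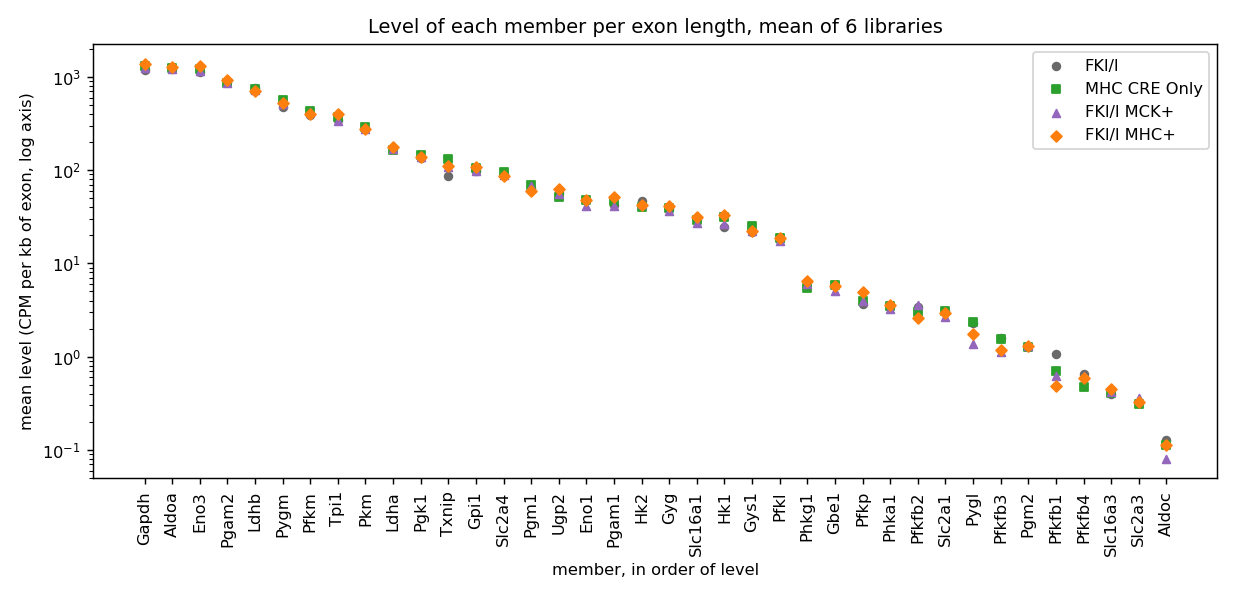
Mean level of each of the 38 members in CPM per kb of exon (vertical log axis), in order of the mean over all 24 libraries; each symbol is the mean of the 6 libraries of 1 genotype. Gapdh, Aldoa and Eno3 lead and Aldoc is lowest in every genotype, and for most members the 4 genotype symbols lie on each other.

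Some members varied little over the 24 libraries and others widely. The highest library was 1.18 times the lowest for Pgk1 (phosphoglycerate kinase), 1.26 times for Pfkl, 1.29 times for Pkm (pyruvate kinase) and 1.29 times for Gpi1 (glucose-6-phosphate isomerase). The widest ratios were 7.38 for Aldoc, whose highest level was 0.681 CPM, 6.91 for Pygl (liver glycogen phosphorylase), 5.92 for Pfkfb1, 4.91 for Pfkfb3 and 3.70 for Txnip.

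Loss of Fkbp1a under αMHC-Cre was compared first with floxed hearts that lack Cre. Of the 38 members, 3 passed in FKl/l MHC+ against FKl/l at an adjusted p of 0.05 in edgeR's quasi-likelihood test with Benjamini-Hochberg adjustment over all genes tested (7.89%, where 1.71% of all 16018 genes did). Hk1 and Pfkp were higher and Pfkfb1 was lower. The median log2 fold change of the members was 0.05, against -0.0035 for all genes tested, and 9 members (23.7%) had an unadjusted p under 0.05, against 14.7% of all genes. The members were chosen with earlier results of these data known. Shares of members set beside all genes, here and below, are therefore descriptive and not an independent comparison.

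Hk1 (chr10:62268855-62379908, minus strand, GENCODE M21 on GRCm38, as for the positions that follow) encodes hexokinase 1, which binds the outer mitochondrial membrane and traps glucose as glucose-6-phosphate. Its level in FKl/l was 187, 189 and 179 CPM in the libraries of batch 1 and 217, 222 and 261 CPM in those of batch 2. The FKl/l MHC+ libraries had 280, 275 and 276 CPM in batch 1 and 286, 281 and 283 CPM in batch 2. All 6 FKl/l MHC+ libraries lay above all 6 FKl/l libraries, and they lay close together. The means were 280.3 ± 4.25 (SD, n = 6) and 209 ± 30.9 CPM (SD, n = 6), a log2 fold change of 0.43 (SE 0.088, adjusted p = 0.0072, edgeR), and within batches it was 0.62 in batch 1 and 0.28 in batch 2.

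Hk1 was also high with αMHC-Cre and no floxed allele. In MHC CRE Only its level was 247, 258 and 357 CPM in batch 1 and 262, 265 and 237 CPM in batch 2. Of those 6 libraries 5 lay within the range of 237 to 265 CPM, below every FKl/l MHC+ library and in part within the FKl/l range. The highest was the library labelled MHC CRE Only 1-3, which is included in the values that follow. Against FKl/l the log2 fold change of Hk1 was 0.38 (SE 0.088, adjusted p = 0.077, edgeR), and FKl/l MHC+ against MHC CRE Only gave 0.04 (SE 0.088, adjusted p = 0.862, edgeR). With DESeq2 the first of these passed (adjusted p = 0.0062). Hk1 in FKl/l MCK+ was 198, 208 and 222 CPM in batch 1 and 236, 246 and 257 CPM in batch 2, which overlaps FKl/l. FKl/l MHC+ lay above every FKl/l MCK+ library, by a log2 fold change of 0.30 that missed the threshold (SE 0.088, adjusted p = 0.066, edgeR), and it passed in 7 of 12 other settings and in 1 of 24 fits that left out 1 library.

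Pfkp (chr13:6579768-6648777, minus strand) encodes the platelet form of phosphofructokinase, the enzyme of the committed step. Its level in FKl/l was 50.6, 38.5 and 46.7 CPM in batch 1 and 48.8, 53.9 and 55.2 CPM in batch 2. The level with αMHC-Cre and floxed alleles was 58.5, 62.7 and 65.6 CPM in batch 1 and 61.3, 69.2 and 77.0 CPM in batch 2. The groups did not overlap. The means were 65.7 ± 6.64 (SD, n = 6) and 48.9 ± 6.02 CPM (SD, n = 6), a log2 fold change of 0.43 (SE 0.081, adjusted p = 0.0037, edgeR), with 0.50 in batch 1 and 0.39 in batch 2.

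The comparison with MHC CRE Only left Pfkp at the threshold. Its level there was 43.7, 51.3 and 58.0 CPM in batch 1 and 56.3, 52.9 and 58.2 CPM in batch 2, all below the lowest FKl/l MHC+ library. The log2 fold change of FKl/l MHC+ against MHC CRE Only was 0.30 (SE 0.081, adjusted p = 0.0501, edgeR), and it passed in 7 of 12 other settings and in 6 of 24 fits that left out 1 library. In FKl/l MCK+ Pfkp was 45.5, 60.3 and 47.4 CPM in batch 1 and 52.0, 52.3 and 62.0 CPM in batch 2, so that 2 libraries reached into the FKl/l MHC+ range.

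Pfkfb1 (chrX:150588229-150643878, plus strand) encodes the liver and muscle form of the enzyme that makes and removes fructose 2,6-bisphosphate, the main activator of phosphofructokinase, and it was scarce in these hearts. In FKl/l it was at 2.26, 3.24 and 7.06 CPM in batch 1 and 4.05, 5.09 and 4.10 CPM in batch 2. FKl/l MHC+ hearts had 1.67, 1.66 and 1.19 CPM in batch 1 and 3.28, 1.96 and 1.80 CPM in batch 2. Of the 6 FKl/l MHC+ libraries 5 lay below all FKl/l libraries, and FKl/l MHC+ 2-1 overlapped them. The means were 1.93 ± 0.711 (SD, n = 6) and 4.30 ± 1.65 CPM (SD, n = 6), a log2 fold change of -1.18 (SE 0.22, adjusted p = 0.0032, edgeR), with -1.44 in batch 1 and -0.91 in batch 2.

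The other Cre genotypes also had less Pfkfb1 than FKl/l without passing the test. In MHC CRE Only it was 3.34, 2.21 and 2.31 CPM in batch 1 and 2.81, 3.15 and 2.94 CPM in batch 2, a log2 fold change of -0.63 against FKl/l (SE 0.21, adjusted p = 0.198, edgeR). In FKl/l MCK+ it was 1.77, 2.95 and 1.94 CPM in batch 1 and 2.91, 3.26 and 2.09 CPM in batch 2, a log2 fold change of -0.80 against FKl/l (SE 0.21, adjusted p = 0.479, edgeR). These comparisons share the FKl/l libraries, so the common direction is not independent evidence. FKl/l MHC+ against MHC CRE Only gave -0.55 (SE 0.22, adjusted p = 0.214, edgeR).

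**Figure D2:**
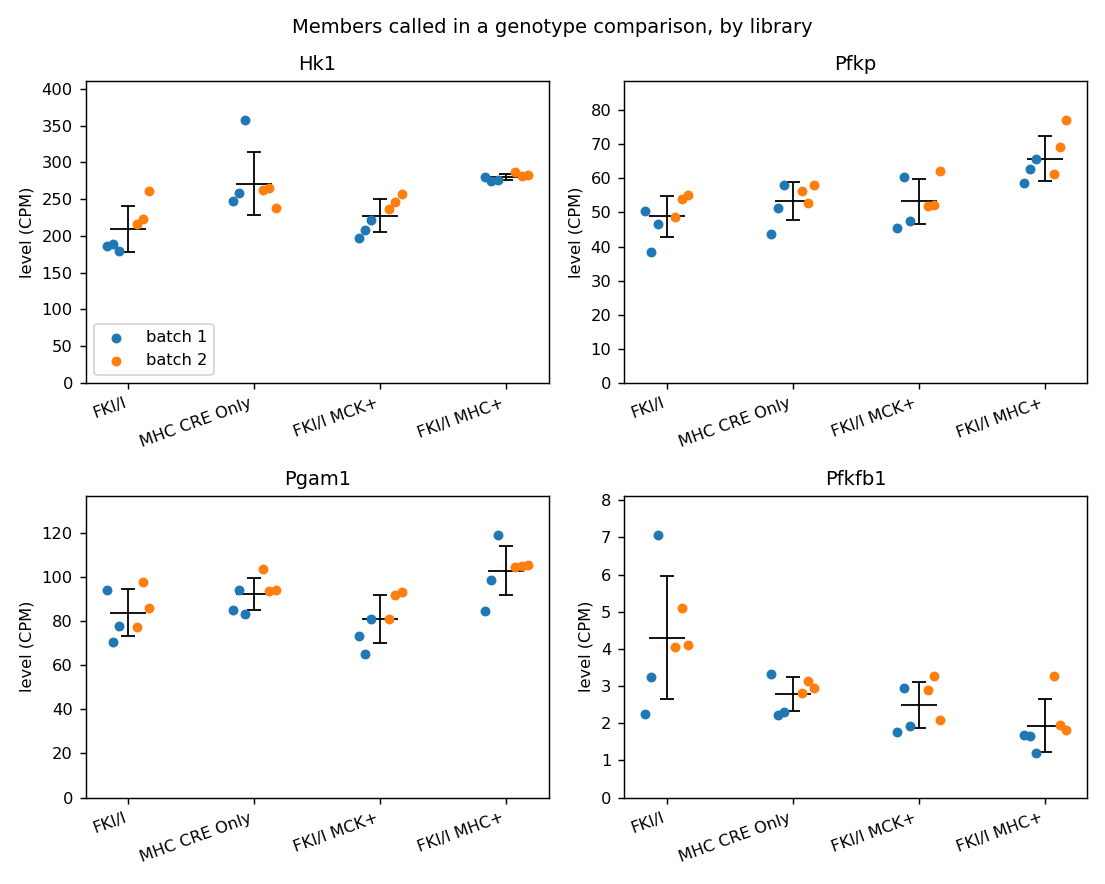
Level in CPM (vertical axis, from 0) of Hk1, Pfkp, Pgam1 and Pfkfb1 in each of the 24 libraries by genotype; blue points are batch 1, orange points batch 2, the horizontal bar is the mean of 6 libraries and the whiskers are 1 SD. Hk1 in FKl/l MHC+ lies between 275 and 286 CPM, above all FKl/l libraries. In MHC CRE Only the highest library is at 357 CPM and the next at 265 CPM, below every FKl/l MHC+ library.

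Pgam1 (chr19:41911923-41918660, plus strand), the brain form of phosphoglycerate mutase, was higher in FKl/l MHC+ than in FKl/l MCK+ hearts. FKl/l MHC+ against FKl/l MCK+ asks whether the 2 deletion models differ, and 2 of 38 members passed, both higher in FKl/l MHC+ (5.26%, where 2.15% of all genes tested did). Pgam1 was 73.3, 65.0 and 81.1 CPM in batch 1 and 81.0, 91.5 and 93.2 CPM in batch 2 of FKl/l MCK+. Levels in FKl/l MHC+ were 84.4, 98.6 and 118.9 CPM in batch 1 and 104.3, 105.1 and 105.4 CPM in batch 2. The groups overlapped through FKl/l MHC+ 1-1 alone. The means were 102.8 ± 11.2 (SD, n = 6) and 80.9 ± 10.7 CPM (SD, n = 6), a log2 fold change of 0.35 (SE 0.082, adjusted p = 0.0199, edgeR). The call ended without FKl/l MHC+ 1-3 (adjusted p = 0.0733), FKl/l MCK+ 1-1 (0.0526) or FKl/l MCK+ 1-2 (0.05002).

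The second member was Pfkp, with means of 65.7 and 53.3 CPM and a log2 fold change of 0.30 (SE 0.081, adjusted p = 0.0437, edgeR). That call was lost in 15 of 24 fits that left out 1 library, with an adjusted p of up to 0.133 without FKl/l MHC+ 2-3. Against FKl/l, Pgam1 in FKl/l MHC+ had a log2 fold change of 0.30 that missed the threshold (SE 0.082, adjusted p = 0.058, edgeR), with FKl/l at 94.0, 70.4 and 77.6 CPM in batch 1 and 77.2, 97.4 and 85.9 CPM in batch 2. MHC CRE Only lay between, at 84.9, 94.0 and 83.0 CPM in batch 1 and 103.4, 93.6 and 94.1 CPM in batch 2.

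No member passed in the other 3 genotype comparisons. For FKl/l MCK+ against FKl/l the count was 0 of 38 in edgeR, DESeq2 and limma voom (0.0499% of all genes passed in edgeR), and 2 members had an unadjusted p under 0.05 (5.26%, against 5.24% of all genes), Pfkfb1 and the glycogen branching enzyme Gbe1. For MHC CRE Only against FKl/l, which tests Cre without deletion, the count was 0 in edgeR and limma voom and 1 in DESeq2, where Hk1 was higher (0.0437% of all genes passed in edgeR). There 7 members had an unadjusted p under 0.05 (18.4%, against 12.9% of all genes), among them Pfkfb4, Pygm and Gys1. For FKl/l MHC+ against MHC CRE Only, which sets deletion against the same Cre, the count was 0 in edgeR and limma voom and 1 in DESeq2, where Pfkp was higher (1.87% of all genes passed in edgeR). An unadjusted p under 0.05 was found for 4 members (10.5%, against 15.8% of all genes), Pfkp, Pgm1, Pfkfb1 and Pfkfb4. Counts in that last comparison were 1 without the 3 libraries that stand apart, and in FKl/l MHC+ against FKl/l 4 without them.

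Most roles of the pathway had no member called. Glucose transport had 0 of 3 members called in every genotype comparison. Slc2a4 (GLUT4) ranged from 244 to 365 CPM (median 317) in FKl/l, from 302 to 364 (335) in MHC CRE Only, from 234 to 356 (329) in FKl/l MCK+ and from 277 to 337 (294) in FKl/l MHC+. These ranges overlap, and its smallest p was in FKl/l MHC+ against MHC CRE Only (log2 fold change -0.16, SE 0.082, adjusted p = 0.344, edgeR). Slc2a1 (GLUT1), the fetal transporter, had group means of 10.9, 10.8, 9.32 and 10.3 CPM in FKl/l, MHC CRE Only, FKl/l MCK+ and FKl/l MHC+.

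In the upper part of glycolysis, which covers hexokinase to triose phosphate isomerase, 2 of 9 members were called in FKl/l MHC+ against FKl/l, Hk1 and Pfkp as above. Hk2, the insulin-responsive muscle hexokinase, lay between 212 and 339 CPM in FKl/l and between 220.2 and 289 CPM in FKl/l MHC+, which overlap. Pfkm lay between 1039 and 1538 CPM in FKl/l and between 1236 and 1514 CPM in FKl/l MHC+. Tpi1, triose phosphate isomerase, had a log2 fold change of 0.23 in that comparison (adjusted p = 0.190, edgeR), with 0.44 in batch 1 and 0.05 in batch 2. Gpi1 had 0.16 (adjusted p = 0.220, edgeR), with 0.32 in batch 1 and 0.03 in batch 2.

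All 4 PFKFB genes, which set the level of fructose 2,6-bisphosphate, had negative log2 fold changes in FKl/l MHC+ against FKl/l, with a median of -0.46 against -0.0035 for all genes, and 1 of them, Pfkfb1, was called. All 4 were also negative in MHC CRE Only against FKl/l (median -0.32, 0 called), a comparison that shares the FKl/l libraries. In FKl/l MHC+ against MHC CRE Only, 3 of the 4 were negative (median -0.33, 0 called). Pfkfb2, the heart form, ranged from 22.03 to 29.0 CPM in FKl/l (median 24.7) and from 11.1 to 31.5 in FKl/l MHC+ (median 16.3). Its log2 fold change was -0.45 (SE 0.20, adjusted p = 0.278, edgeR), and the batches disagreed, with -1.05 in batch 1 and 0.11 in batch 2. Pfkfb3, the hypoxia-inducible form, ranged from 5.98 to 25.9 CPM in FKl/l and from 5.28 to 13.7 in FKl/l MHC+.

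Lower glycolysis, from Gapdh to pyruvate kinase, had 0 of 7 members called in FKl/l MHC+ against FKl/l, where 6 of 7 had positive log2 fold changes. Gapdh had 0.23 (adjusted p = 0.239, edgeR), with 0.46 in batch 1 and 0.02 in batch 2. Eno3, the muscle enolase, had 0.21 (adjusted p = 0.255, edgeR), with 0.47 in batch 1 and -0.03 in batch 2. Pkm lay between 1292 and 1483 CPM in FKl/l and between 1220 and 1475 CPM in FKl/l MHC+. For Tpi1, Gpi1, Gapdh and Eno3 the difference seen in batch 1 was thus near 0 in batch 2. In MHC CRE Only against FKl/l, 5 of the 7 lower glycolysis members also had positive log2 fold changes (0 called). The median of the 7 was 0.11 there and 0.08 in FKl/l MHC+ against FKl/l.

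None of the 4 lactate genes was called between genotypes. The smallest p belonged to Slc16a1, the monocarboxylate transporter MCT1 that carries lactate and pyruvate. It ranged from 97.5 to 146 CPM in FKl/l, from 113 to 142 in MHC CRE Only, from 102 to 140 in FKl/l MCK+ and from 118 to 152 in FKl/l MHC+. The ranges overlap, and the log2 fold change of FKl/l MHC+ against FKl/l MCK+ was 0.22 (SE 0.082, adjusted p = 0.182, edgeR). Slc16a3 (MCT4), typical of glycolytic fibres, had a highest level of 3.07 CPM.

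None of the 10 glycogen genes was called between genotypes either. Pgm1, the phosphoglucomutase that links glucose-6-phosphate with glycogen, ranged from 135 to 221 CPM in FKl/l, from 189 to 227 in MHC CRE Only, from 143 to 225 in FKl/l MCK+ and from 154 to 208 in FKl/l MHC+. Its smallest p was for FKl/l MHC+ against MHC CRE Only (log2 fold change -0.25, SE 0.088, adjusted p = 0.137, edgeR), with overlapping ranges. Txnip, the arrestin-like protein that restrains glucose uptake and follows glucose itself, ranged widely, from 173 to 350 CPM in FKl/l, 280 to 604 in MHC CRE Only, 203 to 496 in FKl/l MCK+ and 202 to 641 in FKl/l MHC+. MHC CRE Only against FKl/l gave Txnip a log2 fold change of 0.60 (SE 0.30, adjusted p = 0.420, edgeR).

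**Figure D3:**
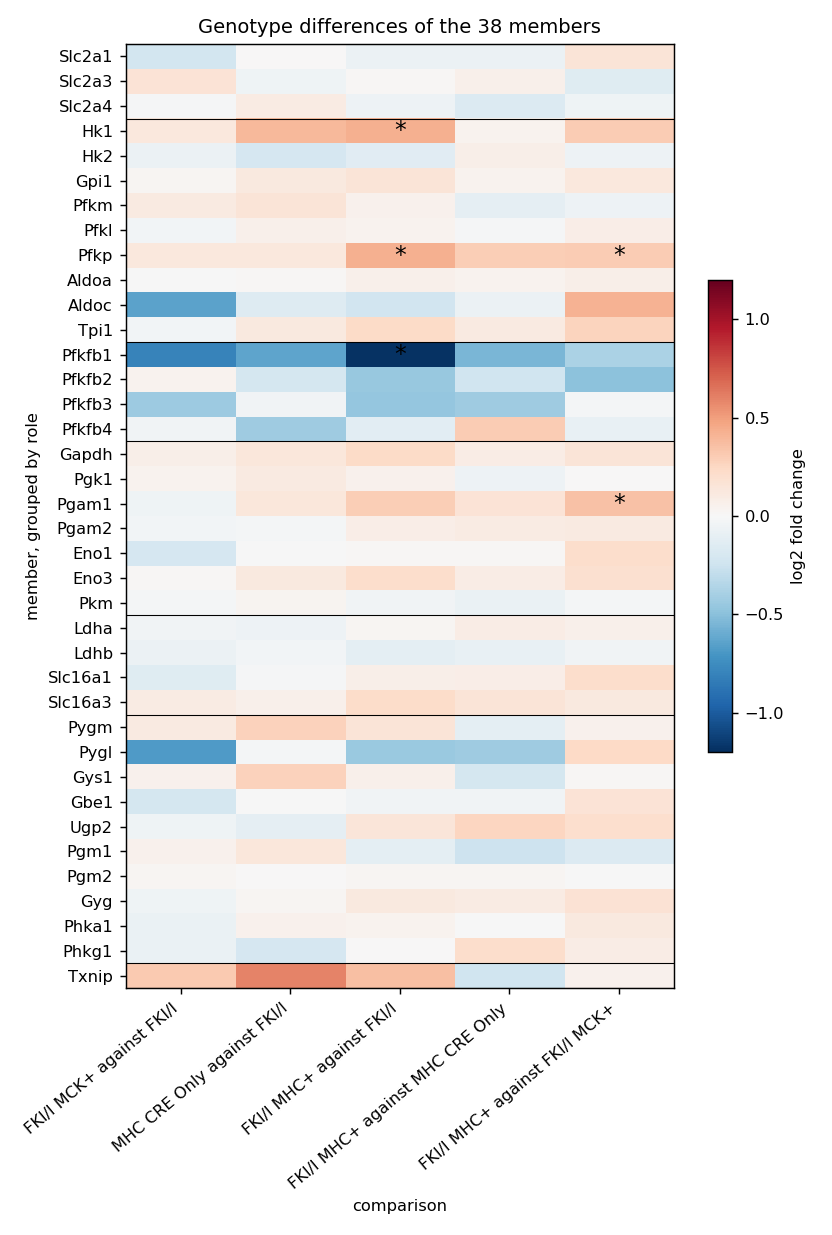
Log2 fold change (colour, red higher and blue lower in the first-named genotype) of the 38 members, grouped by role and separated by lines, in the 5 genotype comparisons; an asterisk marks an adjusted p under 0.05 in edgeR's test. The 5 asterisks stand at Hk1, Pfkp and Pfkfb1 in FKl/l MHC+ against FKl/l and at Pfkp and Pgam1 in FKl/l MHC+ against FKl/l MCK+.

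The balance between isozymes within a library needs no scaling between libraries. For 10 pairs the ratio was compared in 5 genotype comparisons by two-sided permutation within batches (400 arrangements, smallest possible p = 0.005), with adjustment over the 50 tests. Of the 50, 0 passed and 9 had an unadjusted p under 0.05. At that smallest p, 1 test alone cannot pass after adjustment over 50 tests. The count of 0 therefore does not show that the ratios were alike between genotypes. The count of Hk1 divided by that of Hk2 was 0.551, 0.672 and 0.844 in batch 1 and 0.813, 0.824 and 0.909 in batch 2 of FKl/l. The ratio in FKl/l MHC+ was 1.07, 1.08 and 0.956 in batch 1 and 1.28, 1.09 and 1.29 in batch 2, and the groups did not overlap. In MHC CRE Only it was 0.948, 1.10 and 1.86 in batch 1 and 1.02, 1.04 and 1.00 in batch 2, also above every FKl/l library. The 1.86 belongs to the library labelled MHC CRE Only 1-3, which is included in the values that follow and raises the MHC CRE Only mean. The exact permutation p was 0.005 against FKl/l for both genotypes, the smallest possible, with an adjusted p of 0.0833 for each and log2 differences of 0.56 for FKl/l MHC+ and 0.57 for MHC CRE Only. The log2 difference of Pfkp to Pfkm was 0.38 for FKl/l MHC+ against FKl/l and 0.40 against MHC CRE Only (exact permutation p = 0.01 and adjusted p = 0.0833 for each). For Ldha to Ldhb it was 0.17 against MHC CRE Only (exact permutation p = 0.01, adjusted p = 0.0833).

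**Figure D4:**
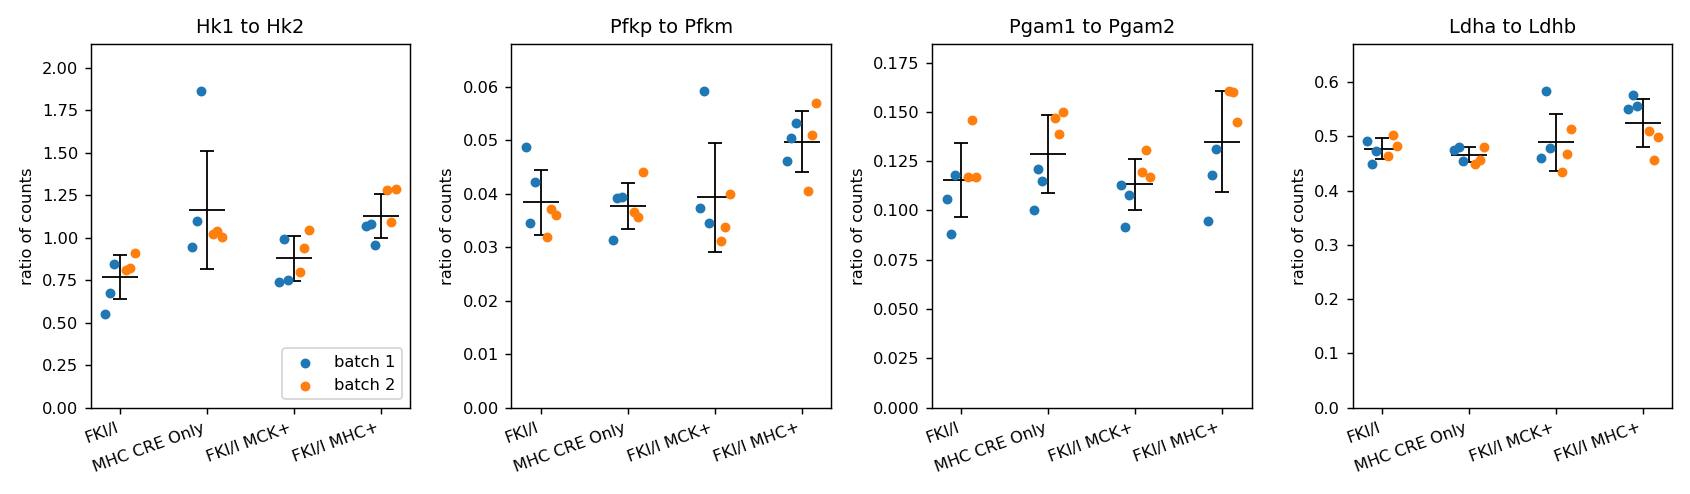
Ratio of deposited counts (vertical axis, from 0) of 4 isozyme pairs in each library; blue is batch 1, orange batch 2, bars are means of 6 libraries and whiskers 1 SD. Every FKl/l MHC+ and MHC CRE Only library has a higher Hk1 to Hk2 ratio than the highest FKl/l library, at 0.909.

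More members were called between batches than between genotypes, where the batch comparison has 12 libraries on each side and a genotype comparison 6. Between batch 2 and batch 1, 15 of 38 members were called (39.5%), 10 higher and 5 lower in batch 2, a share near the 38.4% of all genes tested that were called. Gys1, muscle glycogen synthase, had the largest difference among the called members, with means of 128.9 CPM in batch 2 and 91.3 in batch 1 (log2 fold change 0.52, SE 0.077, adjusted p = 7.26e-06, edgeR). Next in size were Tpi1 (0.30), Aldoa (-0.29), Pygm (0.29) and Pfkm (0.27). Aldoa, Pgam2, Ldha, Ldhb and Phkg1 were lower in batch 2, while 5 of the 6 called glycogen genes were higher. Mitochondrially encoded genes took a median of 35.0% of counts in batch 1 and 28.7% in batch 2, and the part of this in the batch differences was not tested.

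**Figure D5:**
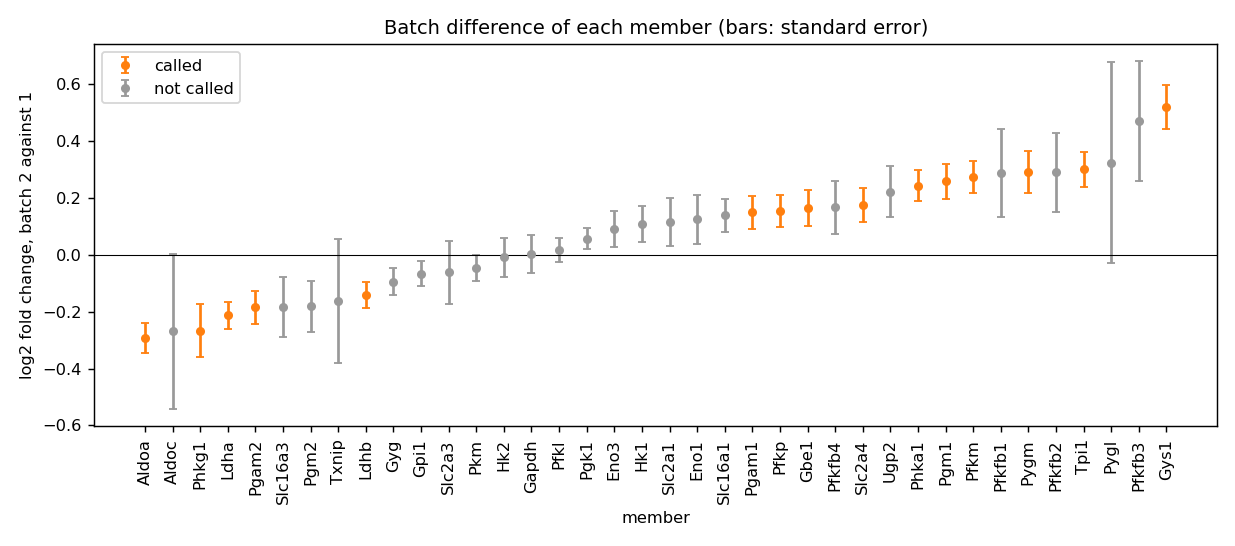
Log2 fold change of batch 2 against batch 1 (vertical axis, bars 1 standard error) for each of the 38 members in order of its size; orange points passed an adjusted p of 0.05 in edgeR's test. Gys1 is highest at 0.52 and Aldoa lowest at -0.29.

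Genotype and batch interacted for 4 members, Gys1 (adjusted p = 0.0299), Eno3 (0.0314), Pygm (0.0344) and Tpi1 (0.0399, edgeR), which is 10.5% of the members where 4.91% of all genes tested were called. Pygm, muscle glycogen phosphorylase, ranged from 1098 to 1340 CPM in batch 1 and 1752 to 1859 in batch 2 of FKl/l, and from 1058 to 1632 and 1898 to 1965 in FKl/l MCK+. In MHC CRE Only it was at 1684 to 2059 and 1672 to 1902 CPM, and in FKl/l MHC+ at 1597 to 1641 and 1659 to 1828. The batches of FKl/l, FKl/l MCK+ and FKl/l MHC+ did not overlap, by the least in FKl/l MHC+, and those of MHC CRE Only did. Gys1 ranged from 69.6 to 82.2 CPM in batch 1 and from 130.1 to 133 in batch 2 of FKl/l, and from 85.2 to 87.9 and 122 to 136 in FKl/l MHC+. Batch 1 of MHC CRE Only had 102, 108 and 146 CPM of Gys1, the last in the library labelled MHC CRE Only 1-3, and batch 2 had 119, 135 and 117. Without the 3 libraries that stand apart, 0 of these 4 interaction calls remained (adjusted p from 0.0737 to 0.154), and the count was also 0 without FKl/l 2-3 or any 1 of MHC CRE Only 1-3, 2-1, 2-2 and 2-3. It was 1 without FKl/l 2-1, FKl/l MCK+ 2-2 or any 1 of FKl/l MHC+ 1-2, 1-3 and 2-2, it was 2 without FKl/l MCK+ 2-3, and it was 11 without FKl/l MCK+ 1-3.

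Related genes outside the list were read from 5 further lists. Of 18 tested other glucose transporters and glycolytic isozymes, 3 were lower and 0 higher in FKl/l MHC+ against FKl/l. Slc2a12, the transporter GLUT12, had means of 5.22 CPM in FKl/l MHC+, 7.24 in FKl/l and 7.84 in MHC CRE Only. It was the 1 related gene called against both FKl/l and MHC CRE Only, with log2 fold changes of -0.46 (SE 0.10, adjusted p = 0.0164, edgeR) and -0.59 (SE 0.10, adjusted p = 0.0019, edgeR). Ldhd, the mitochondrial D-lactate dehydrogenase, was also lower in FKl/l MHC+ than in FKl/l (log2 fold change -0.51, adjusted p = 0.0302, edgeR).

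The related genes called in FKl/l MHC+ against FKl/l MCK+ were Fbp2, muscle fructose-1,6-bisphosphatase, at 8.36 to 12.5 against 12.8 to 16.9 CPM (a log2 fold change of -0.51 with SE 0.11 and adjusted p = 0.0098, edgeR), and Epas1, which encodes the hypoxia factor HIF-2α and is abundant in endothelium (-0.25, SE 0.067, adjusted p = 0.0406, edgeR). None of 21 other glycogen genes, 25 genes of pyruvate entry and side branches or 14 tested hypoxia response genes was called in any genotype comparison in edgeR. At an unadjusted p under 0.05 these lists held 1 to 5 of 21, 1 to 4 of 25 and 2 to 6 of 14 genes per comparison, where 5.24 to 15.8% of all genes reached it. The hypoxia list held 6 of 14 in FKl/l MHC+ against FKl/l MCK+ (15.4% of all genes) and 5 of 14 in FKl/l MHC+ against FKl/l (14.7%). It held 2 of 14 in each other genotype comparison. Of 29 regulators of glucose uptake and use, Epas1 alone was called.

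Markers of other cells moved with the same groups. Fast skeletal muscle markers were higher in FKl/l MHC+ than in FKl/l (3 of 6 tested called, Mylpf, Atp2a1 and Tnni2, where 1.71% of all genes were). The summed level of the 6 tested genes was 13.0 to 29.2 against 5.01 to 13.6 CPM. In MHC CRE Only that sum was 11.7 to 19.7 CPM. All 6 had positive log2 fold changes in MHC CRE Only against FKl/l (median 0.64, 0 called, 3 at an unadjusted p under 0.05). In FKl/l MHC+ against MHC CRE Only, 1 of the 6 was called. Myh1, Myh2 and Myh4, the fast myosins that define that tissue, were not tested and are not in that sum. They were at no more than 0.195 CPM in any library, and Myh4 was at 0 in 22 of 24. Endothelial markers were lower in FKl/l MHC+ than in FKl/l MCK+ (6 of 8 called, where 2.15% of all genes were, summed level 589.6 to 748 against 742 to 959 CPM). In FKl/l MHC+ against FKl/l all 8 also had negative log2 fold changes (median -0.20, 1 called, 7 at an unadjusted p under 0.05, summed level 652 to 873 CPM in FKl/l), and against MHC CRE Only all 8 did too (1 called, 5 at an unadjusted p under 0.05). All 7 adipocyte markers had negative log2 fold changes against FKl/l in FKl/l MHC+ (median -0.74) and FKl/l MCK+ (median -0.94), with none called, and their summed level ranged from 13.1 to 208 CPM in FKl/l MHC+ and from 66.7 to 301 CPM in FKl/l. With a term for the adipocyte markers in the fit, an alternative chosen after seeing the data, 4 members were called in FKl/l MHC+ against FKl/l and the 3 above were among them. The part of any of these cell types, adipocytes included, in the results was not tested.

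The authors' deposited tables of the same 5 comparisons call 0 of the 38 members at an adjusted p of 0.05. Those tables test against a minimum fold, since their statistic is 0 for log2 fold changes up to 0.263 in size. In the authors' deposited table of FKl/l MHC+ against FKl/l, Pfkfb1 has the smallest adjusted p of any member (log2 fold change -1.13, adjusted p = 0.158). Hk1, with a log2 fold change of 0.44, does not pass there either.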

How the data were processed

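The authors deposited whole-number read counts per Ensembl gene, with no normalization. They also deposited 5 comparison tables, whose columns per the file headers are a log2 fold change, mean log2 level, a moderated test score, and a p-value with its adjusted form. The submitters' processing notes name RSEM, STAR, Trim Galore, FastQC, bcl2fastq 2.17 and the build mm10. The annotation, the strand setting, and any rounding of RSEM estimates: not given in the sources used here. Genes with near-identical pseudogenes, such as Gapdh, are therefore less certain than their counts show.

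Rows named by a transcript alone (3660, with 0.873 to 4.28% of a library's counts and none of the members) were left out. Counts were tested in edgeR 4.0.16 (R 4.3.3, limma 3.58.1) by its quasi-likelihood method, with TMM scaling, filterByExpr by genotype and terms for genotype and batch in 1 fit over the 24 libraries. P-values were adjusted over all 16018 genes, the threshold was 0.05, and the method was tested on simulated data. The interaction of genotype and batch had 3 degrees of freedom. DESeq2 1.42.0 and limma voom were alternatives. Ratios were log2 of counts with 0.5 added. Libraries of 1 genotype differed by more than counting noise (chi-square per degree of freedom at least 8.02). Per-library values are given for every member called between genotypes. For role groups without one, the member with the smallest p is given by its range. One result for a related gene is not reported here. The members and lists were chosen with earlier results of these data known.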

Additional observations from a re-analysis of the deposited data

Results flagged for a closer look

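In 6 of 152 sets of 6 libraries (38 members in 4 genotypes) the highest or lowest library lay far from the other 5, where chance flags about 1 in 20 sets, or 7.6. They were Hk1 at 357 CPM and Hk2 at 192 CPM in the library labelled MHC CRE Only 1-3, Pfkfb1 at 3.28 CPM and Pygl at 30.9 CPM in FKl/l MHC+ 2-1, Slc16a1 at 97.5 CPM in FKl/l 1-3, and Slc16a3 at 1.66 CPM in FKl/l MCK+ 2-1. MHC CRE Only 1-3 thus has both the highest Hk1 and the lowest Hk2 of its genotype, and it is the library whose Fkbp1a level goes against its label. In FKl/l MHC+ 2-1 the next library had 11.9 CPM of Pygl, and its adipocyte markers summed to 208 CPM, the highest of that genotype.

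For 4 members the genotype differences were not alike in the 2 batches by the interaction test of edgeR: Gys1 (adjusted p = 0.0299), Eno3 (0.0314), Pygm (0.0344) and Tpi1 (0.0399). In FKl/l MHC+ against FKl/l, for example, Eno3 had a log2 fold change of 0.47 in batch 1 and -0.03 in batch 2, and Pygm 0.43 and -0.08.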

How the results depend on the processing

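Hk1, Pfkp and Pfkfb1 stayed called in FKl/l MHC+ against FKl/l in all 24 fits that left out 1 library (adjusted p up to 0.0262, 0.0167 and 0.0143) and in 11 of 12 other settings each. The exceptions were fits of 1 batch, with 6 libraries fewer per comparison: batch 1 alone for Pfkp (adjusted p = 0.0546) and Pfkfb1 (0.0632), and batch 2 alone for Hk1 (0.0539). The count of members in that comparison ran from 3 to 4 without 1 library.

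In FKl/l MHC+ against MHC CRE Only the count rose from 0 to 1 with DESeq2 size factors, with DESeq2, with no filter on low counts, with only the 2 genotypes, without mitochondrially encoded genes, without the 3 libraries that stand apart and with an adipocyte term, each time by Pfkp, and to 1 in batch 2 alone, by Ugp2. It ran from 0 to 1 without 1 library. In MHC CRE Only against FKl/l it rose to 1, Hk1, with DESeq2, with no filter and in batch 1 alone, and ran from 0 to 1 without 1 library. In FKl/l MHC+ against FKl/l MCK+ it was 4 with DESeq2, 0 without a batch term, 0 in batch 2 alone and 0 to 3 without 1 library. The interaction count was 12 with no filter, 0 without the 3 libraries and 0 to 11 without 1 library. The cause of these changes was not tested. The 5 genotype differences called kept their sign in every setting run.

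Same-numbered libraries did not deviate together (3 of 36 correlations over 0.1), so the numbers were not taken to pair the samples. With a replicate block the count in FKl/l MHC+ against FKl/l MCK+ was 1, since Pfkp had an adjusted p of 0.0525. Aldoc, Slc16a3, Slc2a3, Pfkfb4 and Pfkfb1, each with a mean under 3 CPM, have the fewest counts behind their values.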
